A study of Homo sapiens with 24 samples.

Results

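The MYC, MAX and MXD network was followed here as 10 genes: MYC, MYCN and MYCL, their partner MAX, the antagonists MXD1, MXD3, MXD4, MXI1 and MNT, and the MAX-like factor MLX. They are defined by gene symbol, and are 10 of the 58721 genes counted. RNA-seq was run on 24 libraries in 8 groups of 3 replicates. In LN-229, an established human glioblastoma line with a wild-type genotype label, siZFX cells received siRNA to ZFX, siZNF593 cells siRNA to ZNF593 and siControl cells a control siRNA. A further set held both gene-directed siRNAs together (siZFX_siZNF593, here the double knockdown) and a second control (siControl_2). In 293T, a line from human embryonic kidney, ZFX and its paralog ZNF711 had been knocked out in all cells used (DKO cells), and these were transfected with FLAG-tagged wild-type ZFX (wtZFX), with a FLAG-tagged ZFX construct named ZFX12_13, or with the empty vector pCMV6. The labels do not say what 12_13 stands for, nor whether the DKO cells are 1 clone, and siControl_2 is tied to the double knockdown by how the deposited tables are named, not by the labels. The series calls the replicates biological without naming separate cultures, so the p-values measure the spread between these libraries.

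MYC, MYCN and MYCL are transcription factors that bind DNA as pairs with MAX, typically at the E-box CACGTG, and drive growth, ribosome production and cell division. The MXD proteins and MNT take the place of MYC as partners of MAX and repress genes at the same sites by recruiting SIN3 and histone deacetylases. MLX pairs with MXD1, MXD4 and MNT, and with the glucose-responsive factors MLXIP (MondoA) and MLXIPL (ChREBP), whose known targets include TXNIP and ARRDC4. ZFX is a zinc finger activator bound near the starts of many active genes, and ZNF593 is a zinc finger protein linked to maturation of the large ribosomal subunit.

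The libraries held 16223239 to 30159260 reads on genes, which left 17684 genes tested in LN-229 and 19376 in DKO cells, all 10 network genes among them in both lines. The siRNA target ZFX averaged 16.0 ± 3.52 CPM (normalised read counts, scaled to each library's total) after siZFX and 50.5 ± 4.73 CPM in siControl, and 26.7 ± 2.33 CPM in the double knockdown and 53.6 ± 4.14 CPM in siControl_2 (SD, n = 3 each). ZFX averaged 15534 CPM with wtZFX and 18895 CPM with ZFX12_13, against 224 CPM with pCMV6, so a ZFX transcript was still counted in the DKO cells. ZNF711 averaged 263 ± 13.3 CPM with wtZFX and 256 ± 8.90 CPM with ZFX12_13, against 306 ± 6.44 CPM with pCMV6, so its RNA was counted in them too. ZNF593 lies wholly under another gene and had no unstranded counts; the sum of its stranded counts, which includes reads of that gene, was 1.59 to 2.93 CPM after siZNF593, 2.90 to 3.76 CPM in the double knockdown, and 31.3 to 38.4 CPM in the control libraries of LN-229. Summed over 6 LN-229 markers (CD44, VIM, NES, AXL, CAV1, TNC), expression was 3622 to 6094 CPM in LN-229 libraries and 275 to 306 CPM in DKO libraries, and 5 markers of 293T (LIN28B, PAX2, NEFL, NEFM, KRT18) summed to 26.2 to 89.0 CPM in LN-229 and to 427 to 482 CPM in DKO cells. Leukocyte, endothelial and hepatocyte markers (PTPRC, CD3E, PECAM1, CDH5, ALB) averaged at most 0.847 CPM in any group, while the neuronal genes SNAP25 and SYT1 averaged 27.4 and 46.2 CPM in siControl. Among the double-knockdown libraries, replicate 3 stood apart over all genes as well as for several network genes. The chi-square of the counts per gene was 48.1 and 41.8 in its pairs with replicates 1 and 2, and 5.34 between replicates 1 and 2. In pairs of replicates of the other groups it was at most 10.6. Several results that rest on replicate 3 are also given without it, a choice made after seeing the data.

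The network was built differently in the cell lines. Compared as CPM per kilobase of exon over plain gene totals, a scale that allows for exon length, MYC was the most abundant member with pCMV6 at 48.0 ± 0.867, followed by MXD4 at 24.9 ± 0.420, MLX at 23.3 ± 0.472 and MXI1 at 16.3 ± 0.759. MAX came next at 10.5 ± 0.379 and overlapped with MNT at 10.0 ± 0.428, and MXD3, MXD1, MYCL and MYCN followed at 8.98 ± 0.390, 7.29 ± 0.0647, 2.66 ± 0.110 and 0.292 ± 0.0713 (SD, n = 3). In siControl the order was another one: MLX led with 23.6 ± 0.894, then MXD3 with 16.3 ± 1.56, MYC with 10.6 ± 0.581 and MXD4 with 9.99 ± 0.257, whose libraries overlapped those of MYC. MAX at 8.25 ± 0.809 and MXI1 at 5.15 ± 0.431 followed, then MNT at 3.28 ± 0.513 and MYCN at 3.09 ± 0.281, which overlapped, MXD1 at 1.27 ± 0.0670 and MYCL at 0.121 ± 0.0436. MYCN was thus the second MYC gene of LN-229 and the last member in DKO cells, and MYCL the reverse. The cell line and the experiment cannot be told apart, so these levels are a description with no test. Reads on exon bases shared with another gene are not counted, while the exon length includes those bases. The shared part is 29.7% for MLX, 22.2% for MXD3 and 21.3% for MNT, and 0 for MYC. The places of MLX, MXD3 and MNT in the order are therefore uncertain.

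**Figure D1:**
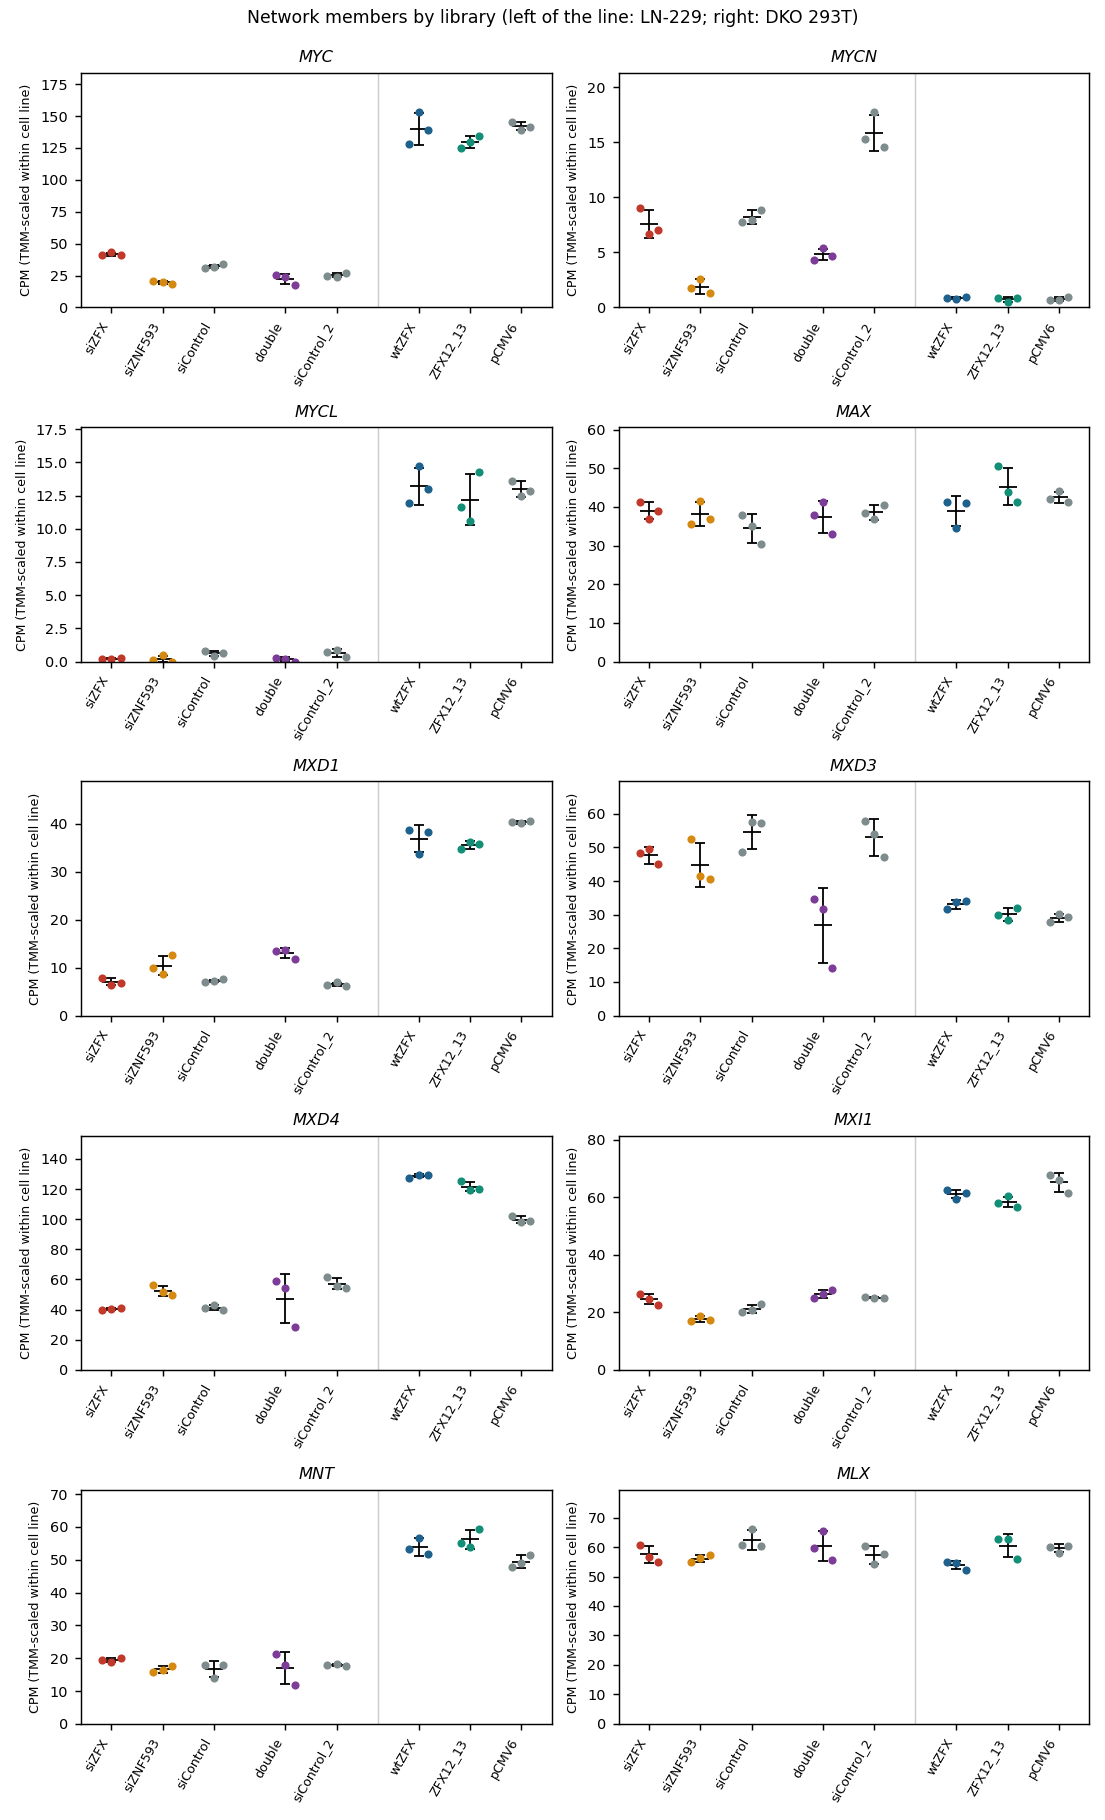
Each panel plots 1 gene, with the CPM over TMM-scaled totals of every library on the vertical axis from 0 and the group on the horizontal axis; points are libraries, the dash is the mean of 3 libraries and the bars are ± SD. MYC, MYCL, MXD1, MXD4, MXI1 and MNT sit higher in the DKO groups and MYCN higher in the LN-229 groups, and replicate 3 of the double knockdown is low for MXD3 (14.1 CPM) and MXD4 (28.5 CPM).

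Promoters are shown for the members other than MYC that were called in at least 1 comparison, so that the E-box, which the network itself binds, can be looked for; for MXI1 the first of 3 is shown. RefSeq sequences on GRCh38.p14 were matched by symbol for 9 of the 10 genes, all but MYC, with 12 promoters in all, and the 250 bases before each start were searched. The E-box CACGTG, which reads the same on both strands, was present in 3 of the 12, those of MXD4, MNT and MLX, and in 6.34% of the 35116 promoters of all genes. AGGCCT, the core of the motif known for ZFX and also the same on both strands, was in none of the 12 and in 9.20% of all promoters; no match says only that these letters are absent from this window. The stretches below, 5′ to 3′, are the longest part of each window outside annotated exons, in lower case with the E-box in capitals. They are the stretches of MYCN at chr2:15940352-15940549 (plus strand), MXD1 at chr2:69914859-69915040 (plus), MXD3 at chr5:177312758-177313002 (minus), MXD4 at chr4:2262295-2262359 (minus), MXI1 at chr10:110207355-110207604 (plus), MNT at chr17:2401119-2401310 (minus) and MLX at chr17:42566850-42567067 (plus).
MYCN: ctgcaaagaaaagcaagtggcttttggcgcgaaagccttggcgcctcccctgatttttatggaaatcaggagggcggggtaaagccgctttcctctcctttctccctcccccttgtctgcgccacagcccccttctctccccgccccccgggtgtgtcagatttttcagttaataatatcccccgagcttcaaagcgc
MXD1: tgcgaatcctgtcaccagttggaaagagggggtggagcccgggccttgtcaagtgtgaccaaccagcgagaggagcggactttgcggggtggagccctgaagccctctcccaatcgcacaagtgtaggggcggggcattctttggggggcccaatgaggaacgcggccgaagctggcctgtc
MXD3: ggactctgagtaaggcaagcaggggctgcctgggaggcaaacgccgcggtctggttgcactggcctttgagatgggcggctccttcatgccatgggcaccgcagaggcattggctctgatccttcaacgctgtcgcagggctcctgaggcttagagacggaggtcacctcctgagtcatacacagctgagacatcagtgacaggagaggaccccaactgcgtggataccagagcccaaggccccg
MXD4: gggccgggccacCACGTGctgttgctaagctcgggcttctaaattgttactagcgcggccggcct
MXI1: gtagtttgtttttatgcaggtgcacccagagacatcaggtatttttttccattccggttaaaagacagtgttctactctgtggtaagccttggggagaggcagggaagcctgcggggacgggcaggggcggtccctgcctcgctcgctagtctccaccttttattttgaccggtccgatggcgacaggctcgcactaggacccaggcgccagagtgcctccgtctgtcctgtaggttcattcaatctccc
MNT: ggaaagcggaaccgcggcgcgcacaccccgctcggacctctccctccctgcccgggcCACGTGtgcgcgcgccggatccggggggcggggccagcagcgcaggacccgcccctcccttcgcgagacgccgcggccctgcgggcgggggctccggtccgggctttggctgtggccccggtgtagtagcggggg
MLX: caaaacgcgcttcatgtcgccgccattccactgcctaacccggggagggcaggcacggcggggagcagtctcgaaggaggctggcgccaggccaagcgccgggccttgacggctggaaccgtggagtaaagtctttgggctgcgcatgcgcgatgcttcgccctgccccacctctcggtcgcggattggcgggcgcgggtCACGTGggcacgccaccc
The E-box began 238 bases before the start in MXD4, 193 in MNT and 50 in MLX, and the windows of MYCN, MXD1, MXD3 and MXI1 did not hold it.

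MYC RNA (chr8:127735434-127741434, plus strand, GRCh38) went in opposite directions after the single knockdowns. It was 40.8, 43.1 and 40.9 CPM after siZFX, against 31.0, 32.0 and 33.6 CPM in siControl. All siZFX libraries lay above all siControl libraries, and the log2 change was 0.37 (SE 0.11, edgeR quasi-likelihood adjusted p = 0.0104). It was the single network gene of 10 called after siZFX, where 30.9% of all genes tested were called at an adjusted p of 0.05, so the share of members called lay below that of all genes. After siZNF593, MYC was 20.5, 20.01 and 18.3 CPM, against the same siControl libraries. Every siZNF593 library was below every siControl library, with a log2 change of -0.72 (SE 0.11, edgeR adjusted p = 3.2e-05). Set directly against each other, siZFX cells had 2.12-fold more MYC RNA than siZNF593 cells, a log2 difference of 1.08 (SE 0.11, edgeR adjusted p = 4.0e-08).

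MYC in the double knockdown depended on the control. It was 25.1, 23.8 and 17.8 CPM in the double knockdown, against 24.4, 24.1 and 26.9 CPM in siControl_2. The groups overlapped, and the log2 change of -0.18 (SE 0.11) did not pass the test (edgeR adjusted p = 0.218); without replicate 3 of the double knockdown it was -0.03. MYC itself was lower in siControl_2 than in siControl, at 25.2 ± 1.51 CPM and 32.2 ± 1.31 CPM (log2 change -0.36, SE 0.11, edgeR adjusted p = 0.0368), although both sets carry the same treatment label; leaving out any of 5 of the 6 control libraries in turn ended that call. With siControl in place of siControl_2 the double knockdown had less MYC, at a log2 change of -0.54 (edgeR adjusted p = 3.8e-04), and with all 6 control libraries at -0.37 (edgeR adjusted p = 0.0186). The double-knockdown effect minus the siZFX effect was -0.55 on the log2 scale (SE 0.15, edgeR adjusted p = 0.0149), and the same effect minus that of siZNF593 was 0.54 (SE 0.16, edgeR adjusted p = 0.0201). The first call was lost without replicate 3 of siControl_2 (edgeR adjusted p = 0.0507) and was -0.90 (edgeR adjusted p = 7.0e-07) with siControl as the control of all groups, and the second difference was 0.18 (edgeR adjusted p = 0.249) on the same footing.

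In DKO cells MYC did not pass the test with either construct. MYC was 128, 153 and 139 CPM with wtZFX and 125, 129 and 135 CPM with ZFX12_13, against 145, 139 and 142 CPM with pCMV6. The wtZFX libraries spread around those of pCMV6 (log2 change -0.02, SE 0.06, edgeR adjusted p = 0.799), while the ZFX12_13 libraries all lay below them (log2 change -0.13, SE 0.06, edgeR adjusted p = 0.0797). Without replicate 3 of ZFX12_13 the latter change was -0.16 (edgeR adjusted p = 0.0410). Over 12 alternatives it ran from -0.16 to -0.11, with an edgeR adjusted p up to 0.226 (without replicate 1 of pCMV6).

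MYCN (chr2:15940564-15947007, plus strand), best known for its amplification in neuroblastoma, showed the widest changes among the network genes that passed the test in LN-229. It was 1.75, 2.59 and 1.27 CPM after siZNF593, against 7.74, 7.94 and 8.88 CPM in siControl. The siZNF593 libraries lay well below those of siControl, with 4.34-fold less RNA (log2 change -2.12, SE 0.21, edgeR adjusted p = 5.8e-08). After siZFX it was 8.99, 6.62 and 7.03 CPM, which overlapped with siControl (log2 change -0.12, SE 0.18, edgeR adjusted p = 0.682). The direct difference of siZFX over siZNF593 was 2.0 on the log2 scale (SE 0.21, edgeR adjusted p = 6.7e-08).

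MYCN was also lower in the double knockdown, at 4.35, 5.37 and 4.71 CPM, against 15.3, 17.7 and 14.5 CPM in siControl_2. The groups were far apart, with a log2 change of -1.72 (SE 0.18, edgeR adjusted p = 1.2e-07), yet siControl_2 held 1.94-fold more MYCN than siControl (log2 change 0.95, SE 0.17, edgeR adjusted p = 6.0e-04). Against siControl the double knockdown still had less MYCN, at a log2 change of -0.76 (edgeR adjusted p = 0.00176). The effect of the double knockdown was 1.60 log2 units below that of siZFX (difference -1.60, SE 0.25, edgeR adjusted p = 8.2e-05). Its difference from the siZNF593 effect was 0.40 (SE 0.28, edgeR adjusted p = 0.366), and 1.35 (edgeR adjusted p = 5.3e-05) with siControl as the control of all groups. In DKO cells MYCN stayed under 1 CPM in all 9 libraries, with 8 to 23 reads each, and neither construct gave a call.

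MYCL (chr1:39895426-39902256, minus strand), the MYC gene first found amplified in small cell lung cancer, was near the detection limit in LN-229, with 0 to 22 reads a library. It was 0.177, 0.185 and 0.260 CPM after siZFX, 0.150, 0.465 and 0 CPM after siZNF593 and 0.803, 0.378 and 0.647 CPM in siControl. The siZFX libraries all lay below siControl, but on 4 to 6 reads each, and the change did not pass the test (log2 change -1.52, SE 0.83, edgeR adjusted p = 0.182). In DKO cells MYCL averaged 13.2 ± 1.40 CPM with wtZFX and 12.2 ± 1.91 CPM with ZFX12_13, against 13.0 ± 0.583 CPM with pCMV6, and the groups overlapped.

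MAX (chr14:65006174-65102695, minus strand), the common partner, passed the test in none of the 10 comparisons as fitted. Its levels ran between 30.4 and 41.6 CPM in the 15 LN-229 libraries and between 34.4 and 50.5 CPM in the 9 DKO libraries. The nearest to a call was ZFX12_13 over wtZFX, at 50.5, 43.9 and 41.3 CPM against 41.3, 34.4 and 41.1 CPM, a log2 difference of 0.22 (SE 0.08, edgeR adjusted p = 0.0531; 0.27 and 0.0148 without replicate 3 of ZFX12_13; 0.21 and 0.0467 with a replicate block). Over 12 alternatives that difference ran from 0.13 to 0.27, with an edgeR adjusted p up to 0.306 (without replicate 2 of wtZFX). The standard errors of the MAX log2 changes were 0.10 in the LN-229 group comparisons and 0.08 in DKO cells.

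MXD1 (chr2:69897688-69942945, plus strand), a MAX partner that rises as many cell types differentiate, was higher wherever ZNF593 had been targeted in LN-229. It was 10.0, 8.59 and 12.6 CPM after siZNF593, against 7.08, 7.12 and 7.55 CPM in siControl. All siZNF593 libraries lay above siControl (log2 change 0.52, SE 0.15, edgeR adjusted p = 0.0129), although the call was lost without replicate 1 or 2 of siControl (edgeR adjusted p = 0.0506 and 0.0512) or without replicate 3 of siZNF593, the highest library (0.34, edgeR adjusted p = 0.138). In the double knockdown MXD1 was 13.5, 13.7 and 11.9 CPM, against 6.36, 6.93 and 6.19 CPM in siControl_2. That is 2.01-fold more RNA with no overlap (log2 change 1.0, SE 0.15, edgeR adjusted p = 1.5e-05). After siZFX MXD1 was 7.88, 6.43 and 6.81 CPM and overlapped with siControl (log2 change -0.04, SE 0.15, edgeR adjusted p = 0.878). The double knockdown exceeded the siZFX effect by 1.04 on the log2 scale (SE 0.21, edgeR adjusted p = 0.00132), and its difference from the siZNF593 effect was 0.49 (SE 0.21, edgeR adjusted p = 0.130).

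The network genes called after siZNF593 were thus 3 of 10 (MYC and MYCN lower, MXD1 higher) beside 26.8% of all genes tested, and those called in the double knockdown were 3 of 10 (MYCN and MXD3 lower, MXD1 higher) beside 38.2%. Between the control sets 2 of 10 were called beside 10.3% of all genes. Between siZFX and siZNF593 directly 4 of 10 were called (MYC, MYCN and MXI1 higher and MXD1 lower with siZFX) beside 40.5% of all genes, 19.8% higher and 20.7% lower. When the siZFX effect was subtracted from that of the double knockdown, 3 of 10 were called (1 higher, 2 lower) beside 17.7% of all genes, 8.76% higher and 8.97% lower. With the siZNF593 effect subtracted, 1 of 10 was called, higher, beside 16.6%, 7.97% higher and 8.60% lower. The median log2 change of the 10 genes was -0.03 after siZFX, -0.21 after siZNF593 and -0.13 in the double knockdown, and that of all genes tested was 0.02, 0.02 and 0.01. siZFX and siZNF593 share their siControl libraries, so their values are not independent.

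**Figure D2:**
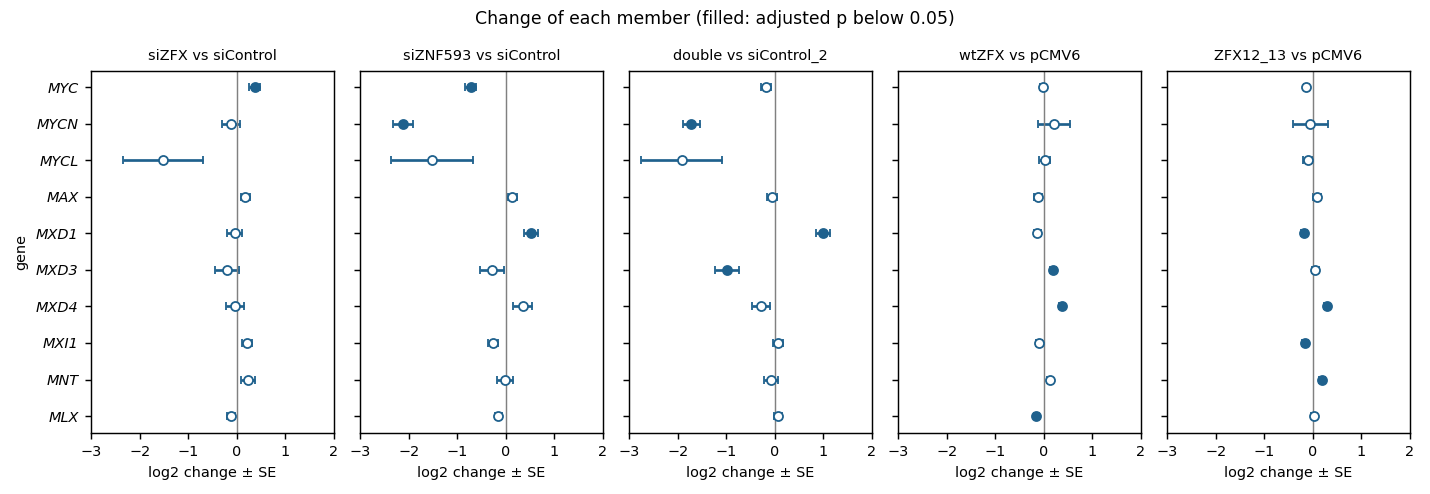
The horizontal axis gives the log2 change ± SE of each of the 10 genes (rows) in 5 comparisons (panels), with filled points for an adjusted p under 0.05 and open points otherwise. MYCN lies at -2.12 after siZNF593 and at -1.72 in the double knockdown, MYC at 0.37 after siZFX and at -0.72 after siZNF593, and the DKO panels hold no change beyond 0.37 in size.

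MXD3 (chr5:177301461-177312757, minus strand), an MXD gene tied to S phase, was lower in the double knockdown. It was 34.7, 31.8 and 14.1 CPM there, against 58.0, 53.9 and 47.2 CPM in siControl_2. The groups did not overlap, the log2 change was -0.98 (SE 0.25, edgeR adjusted p = 0.00884), and without the low replicate 3 it was -0.67 (edgeR adjusted p = 2.5e-07). After siZFX it averaged 47.6 ± 2.42 CPM and after siZNF593 44.8 ± 6.53 CPM, against 54.5 ± 5.09 CPM in siControl. Neither passed the test over all LN-229 groups (log2 changes -0.20 and -0.28), but a fit of only the groups compared called both lower (adjusted p = 0.00808 and 0.0127, edgeR). Of its exon bases 22.2% are shared with PRELID1 on the other strand, and reads there are in neither gene's unstranded count. With the stranded columns summed, which keeps reads of both genes there, the change in the double knockdown was -0.35 (edgeR adjusted p = 5.8e-04). Over all libraries that sum was 5.193 times the unstranded count of MXD3. The -0.35 therefore rests mostly on reads that cannot be told from those of PRELID1, and is no separate measure of MXD3.

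MXD4 (chr4:2247432-2262294, minus strand), a MAX and MLX partner, was the network gene that changed most with the ZFX constructs among those that passed the test. It was 128, 129 and 129.6 CPM with wtZFX and 125, 119 and 120.3 CPM with ZFX12_13, against 102, 98.4 and 98.7 CPM with pCMV6. Every construct library lay above every pCMV6 library, with log2 changes of 0.37 (SE 0.05, edgeR adjusted p = 9.1e-07) and 0.29 (SE 0.05, edgeR adjusted p = 4.4e-05), and both calls held in every alternative setting tried. The constructs differed by -0.08 (ZFX12_13 over wtZFX, SE 0.05, edgeR adjusted p = 0.258). Its promoter is among the 3 that hold an E-box, shown above.

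In LN-229, MXD4 was 39.9, 40.4 and 41.2 CPM after siZFX and 56.3, 51.5 and 49.9 CPM after siZNF593, against 41.2, 43.1 and 39.5 CPM in siControl. The siZFX libraries overlapped siControl (log2 change -0.03, SE 0.19, edgeR adjusted p = 0.934). The siZNF593 libraries all lay above siControl, but the change of 0.35 did not pass the test over all LN-229 groups (SE 0.19, edgeR adjusted p = 0.196), while it did in the fit of these 2 groups alone (edgeR adjusted p = 6.1e-04) and with replicate 3 of the double knockdown left out of the fit (0.34, edgeR adjusted p = 2.0e-04). Against all 6 control libraries it was 0.10 (edgeR adjusted p = 0.759). It was 58.9, 54.4 and 28.5 CPM in the double knockdown, against 61.5, 56.0 and 54.1 CPM in siControl_2. Replicate 3 stood alone below the rest, and the log2 change was -0.28 with it (SE 0.18, edgeR adjusted p = 0.270) and -0.01 without it. siControl_2 was above siControl by 0.47 (SE 0.19, edgeR adjusted p = 0.140, and 9.5e-06 with only those groups fitted).

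MXI1 (chr10:110207605-110287365, plus strand), also known as MXD2, parted the single knockdowns. It was 26.3, 24.7 and 22.7 CPM after siZFX and 16.8, 18.8 and 17.4 CPM after siZNF593, against 20.1, 20.8 and 22.9 CPM in siControl. The siZFX and siZNF593 libraries did not overlap, with a log2 difference of 0.47 for siZFX over siZNF593 (SE 0.10, edgeR adjusted p = 5.0e-04). Against siControl neither passed the test, at 0.21 (SE 0.10, edgeR adjusted p = 0.110) after siZFX and -0.26 (SE 0.10, edgeR adjusted p = 0.0537) after siZNF593; the siZNF593 change passed with DESeq2 (adjusted p = 0.0425). In DKO cells MXI1 averaged 58.4 ± 1.79 CPM with ZFX12_13, against 65.2 ± 3.20 CPM with pCMV6 (log2 change -0.16, SE 0.06, edgeR adjusted p = 0.0325), and DESeq2 did not call it (adjusted p = 0.0640).

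MNT (chr17:2384060-2401118, minus strand), the widely expressed MAX partner that antagonizes MYC, stayed between 11.7 and 21.3 CPM in LN-229 with no call. In DKO cells it was 53.2, 56.8 and 51.6 CPM with wtZFX and 55.3, 54.0 and 59.5 CPM with ZFX12_13, against 47.7, 48.9 and 51.6 CPM with pCMV6. All ZFX12_13 libraries lay above pCMV6 (log2 change 0.19, SE 0.06, edgeR adjusted p = 0.0198), and the wtZFX change of 0.12 did not pass (SE 0.06, edgeR adjusted p = 0.107). The ZFX12_13 call was lost with no filter on low counts (edgeR adjusted p = 0.0697) and without replicate 1 or 2 of pCMV6 or replicate 3 of ZFX12_13 (edgeR adjusted p = 0.10, 0.0706 and 0.0913).

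With wtZFX 3 of the 10 genes were called beside 42.3% of all genes tested, and with ZFX12_13 4 of 10 beside 36.6%. Besides MXD4 these were MXD3 and MLX with wtZFX, and MNT, MXI1 and MXD1 with ZFX12_13. MXD3 averaged 33.2 ± 1.33 CPM with wtZFX, against 29.1 ± 1.17 CPM with pCMV6 (log2 change 0.19, SE 0.07, edgeR adjusted p = 0.0315), and MXD1 averaged 35.5 ± 0.795 CPM with ZFX12_13, against 40.3 ± 0.307 CPM with pCMV6 (log2 change -0.18, SE 0.07, edgeR adjusted p = 0.0341). DESeq2 called neither (adjusted p = 0.0540 and 0.0800). MXD1 with wtZFX was at 36.9 ± 2.78 CPM (log2 change -0.13, SE 0.07, edgeR adjusted p = 0.122). Both construct comparisons use the same pCMV6 libraries.

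MLX (chr17:42567068-42573239, plus strand) ranged from 52.2 to 66.2 CPM over all 24 libraries. It was 54.8, 54.7 and 52.2 CPM with wtZFX, against 60.1, 58.1 and 60.5 CPM with pCMV6. The groups did not overlap and the change of -0.15 passed narrowly (SE 0.06, edgeR adjusted p = 0.0489); DESeq2, RLE factors, no filter and leaving out any 1 library of either group each ended the call, with adjusted p up to 0.181. ZFX12_13, at 62.7, 62.7 and 56.1 CPM, exceeded wtZFX by 0.17 (SE 0.06, edgeR adjusted p = 0.0472), the single network gene of 10 called between the constructs beside 20.4% of all genes tested, 9.73% higher and 10.6% lower, and DESeq2 did not call it (adjusted p = 0.0967). Of its exon bases 29.7% are shared with PSMC3IP on the other strand, and 21.3% of those of MNT with the antisense gene AC006435.1.

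**Figure D3:**
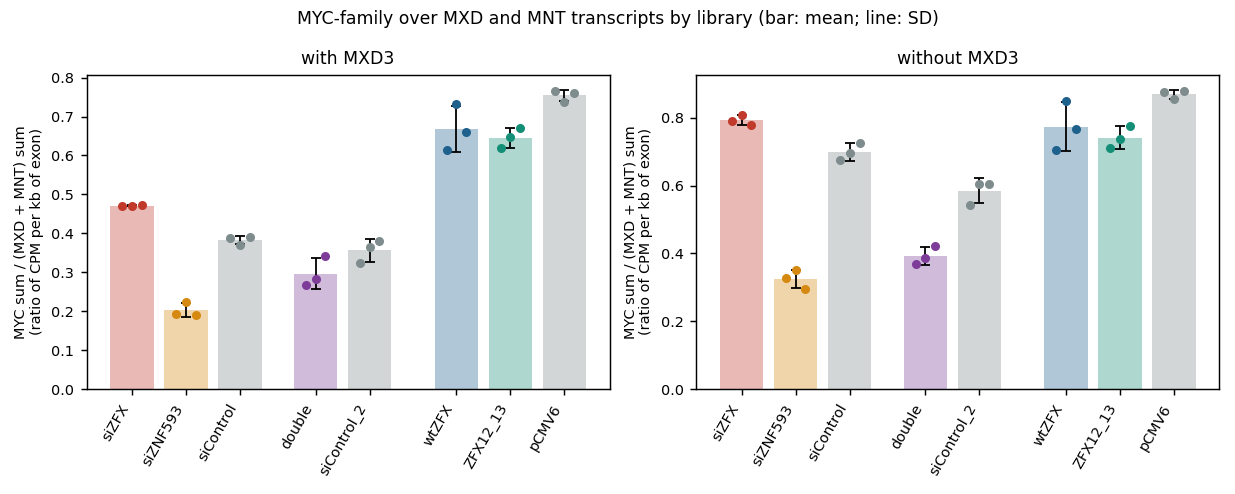
Bars are means over 3 libraries, lines are ± SD and points are libraries; the vertical axis, from 0, is the summed level of MYC, MYCN and MYCL over the summed level of MXD1, MXD3, MXD4, MXI1 and MNT, each in CPM per kilobase of exon, with MXD3 (left) and without it (right). The ratio was 0.202 after siZNF593, 0.471 after siZFX and 0.383 in siControl.

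Summed over the network, the balance of MYC genes to their antagonists was 0.471 ± 0.00111 after siZFX and 0.202 ± 0.0180 after siZNF593, against 0.383 ± 0.0112 in siControl (SD, n = 3 each). The libraries of these 3 groups did not overlap. It was 0.297 ± 0.0395 in the double knockdown, against 0.356 ± 0.0292 in siControl_2, with overlap. The overlap came from replicate 3, since replicates 1 and 2, at 0.266 and 0.282, lay below the lowest siControl_2 library, at 0.323. Without MXD3, which loses the reads it shares with PRELID1, the ratio was 0.392 ± 0.0263, against 0.584 ± 0.0369, without overlap. On that ratio the control sets did not overlap either, at 0.675 to 0.725 in siControl and 0.542 to 0.606 in siControl_2. A lack of overlap alone therefore does not set a knockdown apart from its control. In DKO cells the ratio over all 8 genes was 0.668 ± 0.0597 with wtZFX and 0.646 ± 0.0257 with ZFX12_13, against 0.754 ± 0.0154 with pCMV6. No library of either construct reached the lowest pCMV6 library, at 0.736. The ratio describes RNA of genes chosen by name, and no p is given for it; an exact permutation test of 3 against 3 libraries could not fall below 0.10.

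The MLX side of the network showed larger changes than MLX itself. MLXIPL, the glucose-responsive partner of MLX, was 51.3, 56.8 and 52.4 CPM with wtZFX and 49.2, 53.1 and 62.6 CPM with ZFX12_13, against 22.8, 24.7 and 22.7 CPM with pCMV6. All construct libraries lay far above pCMV6, with log2 changes of 1.19 (SE 0.08, edgeR adjusted p = 9.9e-12) and 1.23 (SE 0.08, edgeR adjusted p = 8.1e-12); it had too few reads to be tested in LN-229. MLXIP, the other such partner, rose with wtZFX and with ZFX12_13 by 0.35 and 0.34 (SE 0.05 each, edgeR adjusted p = 2.1e-06 and 4.0e-06). In LN-229 MLXIP was 90.3, 73.3 and 87.8 CPM after siZNF593, against 60.6, 56.9 and 54.8 CPM in siControl (log2 change 0.54, SE 0.11, edgeR adjusted p = 5.1e-04). After siZFX it was 48.7, 47.4 and 53.9 CPM, below all siControl libraries, but was not called. A fit of only those groups called MLXIP lower (-0.21, edgeR adjusted p = 0.00509), as did one without replicate 3 of the double knockdown (-0.20, edgeR adjusted p = 0.0294). It was 67.8, 67.8 and 49.5 CPM in the double knockdown, against 47.0, 53.7 and 54.1 CPM in siControl_2 (0.26, SE 0.11, edgeR adjusted p = 0.0647). Without replicate 3 of the double knockdown that change was 0.40 (edgeR adjusted p = 1.0e-04). With siControl in place of siControl_2 it was 0.10 (edgeR adjusted p = 0.475).

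TXNIP, which restrains glucose uptake, was 77.1, 75.5 and 71.6 CPM after siZFX and 94.3, 106 and 92.6 CPM after siZNF593, against 32.7, 34.9 and 33.5 CPM in siControl. Both knockdowns were above all siControl libraries, with log2 changes of 1.15 and 1.54 (SE 0.08 each, edgeR adjusted p = 3.9e-10 and 3.4e-12); against all 6 control libraries the siZFX change was 0.73. It was 90.5, 110.2 and 95.6 CPM in the double knockdown, against 58.6, 53.6 and 57.1 CPM in siControl_2 (0.81, SE 0.08, edgeR adjusted p = 6.5e-08), while siControl_2 exceeded siControl by 0.74 (SE 0.08, edgeR adjusted p = 1.5e-06) and the double knockdown exceeded siControl by 1.55. In DKO cells TXNIP was lower, at 18.9 ± 0.645 CPM with wtZFX and 23.2 ± 1.43 CPM with ZFX12_13, against 28.0 ± 2.74 CPM with pCMV6 (log2 changes -0.57 and -0.28, SE 0.08 each, edgeR adjusted p = 4.0e-06 and 0.00959); the second was lost without replicate 1 or 2 of pCMV6 (edgeR adjusted p = 0.0584 and 0.0640). ARRDC4, a relative of TXNIP, was 5.72 ± 0.125 CPM after siZNF593, against 2.65 ± 0.150 CPM in siControl (1.11, SE 0.26, edgeR adjusted p = 0.00230), and it rose with wtZFX and ZFX12_13 by 0.56 and 0.50 (edgeR adjusted p = 2.5e-05 and 2.0e-04), opposite to TXNIP. After siZFX ARRDC4 was 1.70 ± 0.563 CPM, with a change of -0.64 that did not pass the test (edgeR adjusted p = 0.0894; -0.97 and 0.00976 against all 6 control libraries). In the double knockdown it was 3.74 ± 1.28 CPM, against 4.06 ± 0.426 CPM in siControl_2 (-0.12, edgeR adjusted p = 0.743), and no alternative gave a call. MGA, a MAX partner that carries its own repressor complex, had log2 changes of 0.29, 0.38 and 0.28 after siZFX, siZNF593 and the double knockdown (edgeR adjusted p = 0.0173, 0.00260 and 0.0155) and of -0.20 with each construct (edgeR adjusted p = 0.0281 and 0.0340); apart from the siZNF593 change, each of these was lost in at least 1 alternative.

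**Figure D4:**
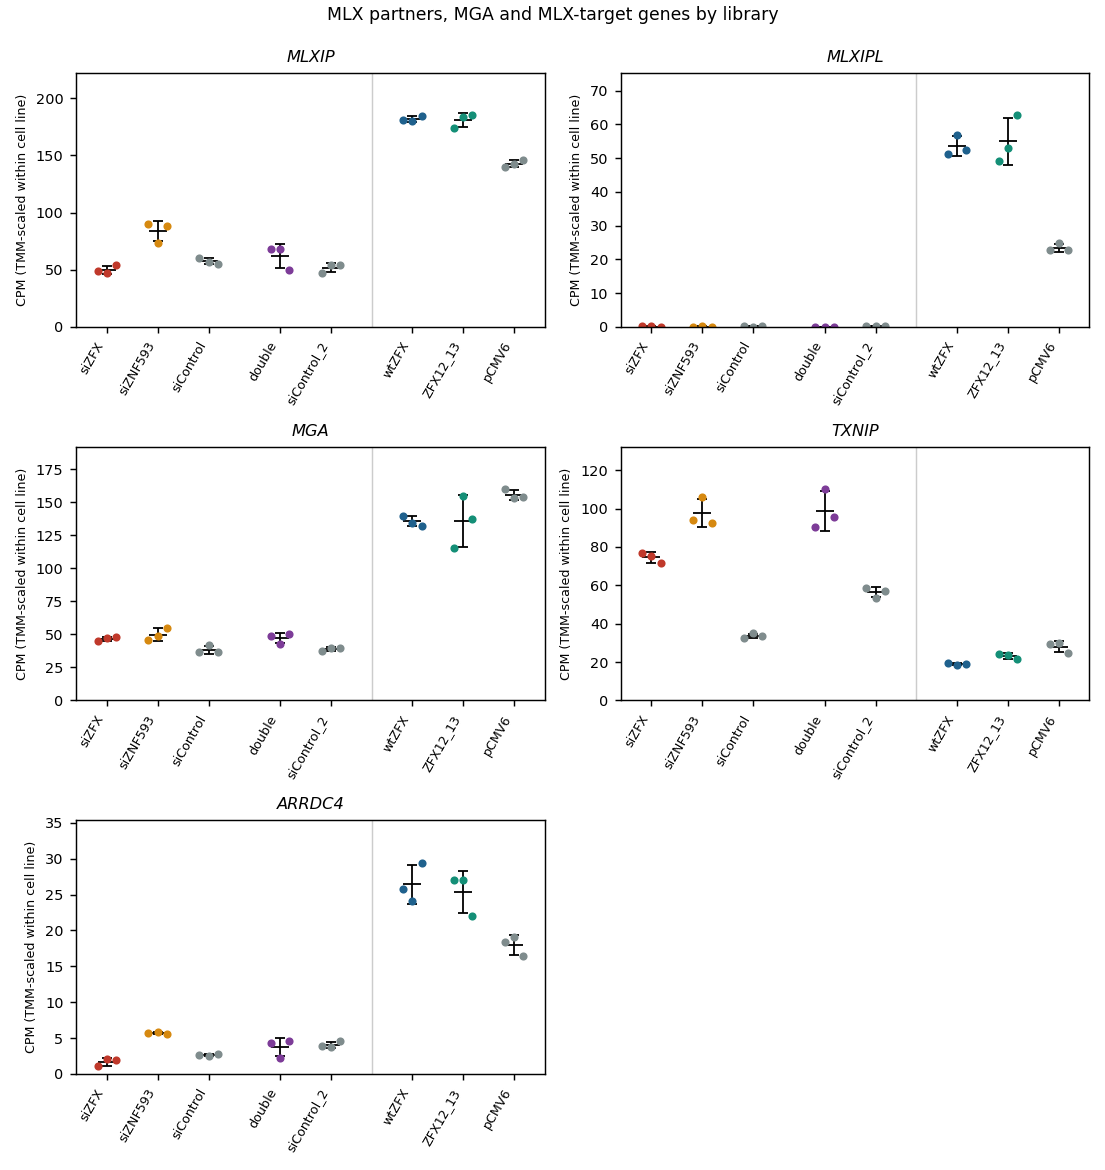
Each panel plots 1 gene with CPM over TMM-scaled totals of every library on the vertical axis from 0 and the group on the horizontal axis; points are libraries, the dash is the mean of 3 libraries and the bars are ± SD. TXNIP lies highest after siZNF593 and in the double knockdown (90.5 to 110.2 CPM), and MLXIPL is near 0 in LN-229 and between 49.2 and 62.6 CPM with the ZFX constructs.

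Genes known to be activated by MYC were counted beside the network. Of 41 such genes, named from general knowledge but with earlier results of these data known, 40 were tested in LN-229. After siZFX 3 rose and 9 fell, with a median log2 change of -0.03; after siZNF593 2 rose and 17 fell, with a median of -0.24; and in the double knockdown 4 rose and 19 fell, with a median of -0.19. Of all genes tested 13.8% rose and 17.1% fell after siZFX, 12.2% and 14.6% after siZNF593, and 17.6% and 20.6% in the double knockdown. The control sets also differed: 9 of the 40 were lower and 0 higher in siControl_2 than in siControl (median -0.17), beside 4.88% and 5.43% of all genes; 5 were lower without replicate 2 of siControl or of siControl_2, 18 without replicate 3 of the double knockdown and 20 with only the control sets fitted. After siZFX the 9 that fell were 5 without replicate 1 of siControl or replicate 2 of siZFX and 4 without replicate 3 of siZFX, and the 3 that rose were 8 with only those groups fitted and 6 without replicate 3 of the double knockdown. After siZNF593 1 in place of 2 rose when any 1 library of siControl or siZNF593 was left out. In the double knockdown set against siControl, 25 fell and 0 rose (median -0.38). Against siControl_2 and without replicate 3 of the double knockdown, 18 fell and 3 rose (median -0.14). The counts under other controls, fits or libraries have no share of all genes at the same setting beside them.

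The named genes of that list changed unevenly. After siZNF593, MYBBP1A, a nucleolar Pol I cofactor, fell to 47.7 ± 2.65 CPM, against 99.4 ± 5.17 CPM in siControl (log2 change -1.06, edgeR adjusted p = 1.4e-05), and LDHA, lactate dehydrogenase A, fell to 855 ± 68.9 CPM, against 1515 ± 83.7 CPM (-0.82, edgeR adjusted p = 8.6e-09). The mitochondrial chaperonin gene HSPE1 fell by 0.95 on the log2 scale (edgeR adjusted p = 2.7e-05). After siZFX, where MYC itself was higher, the chaperonin gene HSPD1 fell to 504 ± 9.70 CPM, against 787 ± 18.5 CPM in siControl (-0.64, edgeR adjusted p = 1.1e-07), SRM, spermidine synthase, fell by 0.47 (edgeR adjusted p = 2.4e-05), and RRP12, a ribosome assembly factor, rose by 0.44 (edgeR adjusted p = 5.7e-04). In the double knockdown MYBBP1A, the E-box factor gene TFAP4 and the glutamine transporter gene SLC1A5 fell by 1.16, 1.0 and 0.70 (edgeR adjusted p = 3.4e-06, 1.1e-05 and 3.0e-06). With 1 library left out, these log2 changes ran from -1.29 to -0.95, from -1.12 to -0.89 and from -0.79 to -0.55.

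In DKO cells 10 of the 41 genes rose and 8 fell with wtZFX (median -0.01), beside 23.2% and 19.2% of all genes, and 7 rose and 8 fell with ZFX12_13 (median 0.01), beside 20.9% and 15.7%. Without replicate 2 of wtZFX or replicate 3 of pCMV6 4 and 5 fell with wtZFX, and 14 with only its own groups fitted; without replicate 1 or 3 of ZFX12_13 13 and 5 fell with ZFX12_13. ODC1, the enzyme that starts polyamine synthesis, rose with both, to 265 ± 13.2 CPM with wtZFX and 244 ± 25.5 CPM with ZFX12_13, against 199 ± 4.51 CPM with pCMV6 (log2 changes 0.41 and 0.29, edgeR adjusted p = 5.2e-06 and 4.5e-04). CAD, which starts pyrimidine synthesis, fell with ZFX12_13 by 0.32 (edgeR adjusted p = 0.00236), and by 0.21 without replicate 1 of ZFX12_13.

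Of 10 genes known to be repressed by MYC, 9 were tested in LN-229. After siZFX 3 rose and 0 fell (median 0.19), beside 13.8% and 17.1% of all genes, and 5 rose with only those groups fitted or without replicate 3 of the double knockdown. After siZNF593 3 rose and 2 fell (median -0.01), beside 12.2% and 14.6%, and without replicate 1 or 2 of siControl or replicate 2 or 3 of siZNF593 1 fell. In the double knockdown, beside 17.6% and 20.6%, 3 rose and 3 fell (median -0.12, and 0.00 without replicate 3 of the double knockdown). GADD45A fell to 40.2 ± 10.2 CPM, against 62.5 ± 2.97 CPM in siControl_2 (log2 change -0.64, edgeR adjusted p = 0.00279). With 1 library left out, the GADD45A change ran from -0.76 to -0.44. CEBPA, a differentiation factor gene near 0 in LN-229, also fell, to 0.0133 CPM against 0.463 CPM in siControl_2. CDKN1B, the cyclin-dependent kinase inhibitor p27, was 115 ± 1.65 CPM after siZFX and 104 ± 2.18 CPM after siZNF593, against 73.7 ± 2.57 CPM in siControl (log2 changes 0.64 and 0.49, edgeR adjusted p = 1.2e-07 and 6.6e-06). ID2, an inhibitor of basic helix-loop-helix factors, rose by 0.63, 0.69 and 0.84 after siZFX, siZNF593 and the double knockdown (edgeR adjusted p = 6.5e-05, 2.9e-05 and 1.9e-06), and GADD45B, a stress response gene, by 0.50, 0.55 and 0.65 (edgeR adjusted p = 0.00881, 0.00566 and 0.00104). The GADD45B call after siZFX was lost without replicate 1 of siControl or replicate 2 of siZFX (edgeR adjusted p = 0.0716 and 0.0515), and that after siZNF593 without replicate 1 of siControl or of siZNF593 (edgeR adjusted p = 0.0531 and 0.0560). In DKO cells 3 of 10 rose and 2 fell with wtZFX, beside 23.2% and 19.2% of all genes, and 3 rose and 0 fell with ZFX12_13, beside 20.9% and 15.7% (2 fell without replicate 1 of ZFX12_13), with CEBPA at 15.7 ± 1.80 CPM and 14.2 ± 1.5 CPM, against 6.60 ± 0.191 CPM with pCMV6 (log2 changes 1.25 and 1.10, edgeR adjusted p = 1.7e-09 and 3.8e-08).

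**Figure D5:**
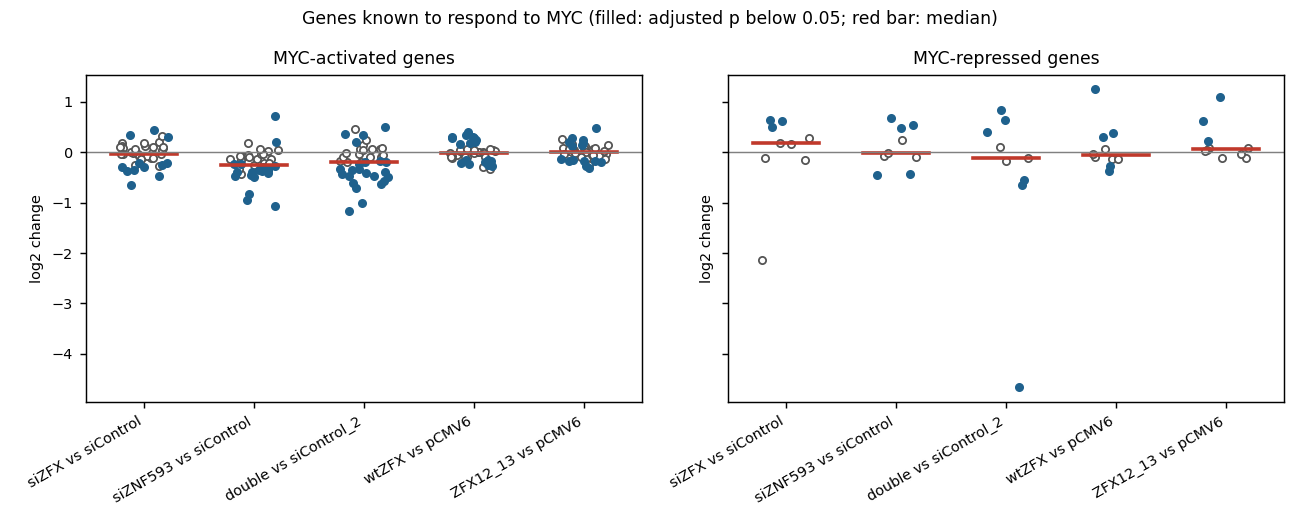
The vertical axis gives the log2 change of each tested gene known to be activated (left) or repressed (right) by MYC in 5 comparisons on the horizontal axis; filled points have an adjusted p under 0.05 and red bars are medians. The medians of the activated genes lie at -0.24 after siZNF593 and -0.19 in the double knockdown and between -0.03 and 0.01 in the other comparisons.

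Of 16 cofactors and degradation factors of MYC, 1 rose and 3 fell after siZFX, beside 13.8% and 17.1% of all genes; 4 rose and 5 fell with only those groups fitted, and 4 rose without replicate 3 of the double knockdown. After siZNF593 1 rose and 5 fell, beside 12.2% and 14.6%, and in the double knockdown 1 rose and 7 fell, beside 17.6% and 20.6% (4 fell with only those groups fitted). SKP2, a ubiquitin ligase subunit that acts on MYC and p27, fell to 45.3 ± 3.05 CPM after siZFX, against 80.6 ± 4.31 CPM in siControl (log2 change -0.83, edgeR adjusted p = 8.5e-07). WDR5, which MYC binds on chromatin, fell by 0.40 after siZFX and by 0.55 in the double knockdown (edgeR adjusted p = 3.4e-04 and 6.2e-06) and rose by 0.28 with wtZFX (edgeR adjusted p = 1.5e-04). AURKA, a kinase that shields MYCN from degradation, fell to 123 ± 4.32 CPM after siZNF593, against 177 ± 11.2 CPM in siControl (-0.53, edgeR adjusted p = 6.6e-06). FBXW7, the ubiquitin ligase subunit that targets MYC, fell by 0.47 with wtZFX and by 0.34 with ZFX12_13 (edgeR adjusted p = 1.6e-06 and 1.5e-04), when 3 and 2 of the 16 rose, beside 23.2% and 20.9% of all genes, and 1 fell in each, beside 19.2% and 15.7%. With only its own groups fitted, 8 of the 16 fell with wtZFX, and without replicate 1 of wtZFX or replicate 3 of pCMV6 1 rose.

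Of the 10 corepressor genes that MXD proteins and MNT draw on, 1 rose and 0 fell after siZFX, beside 13.8% and 17.1% of all genes. After siZNF593 0 rose and 5 fell, beside 12.2% and 14.6%, and in the double knockdown 1 rose and 2 fell, beside 17.6% and 20.6%. Against siControl 5 fell in the double knockdown, and without replicate 2 of siControl_2 4 did, with no share of all genes at those settings beside them. SIN3A, the scaffold that MXD proteins bind, was 109.7 ± 2.01 CPM after siZFX and 66.6 ± 2.61 CPM after siZNF593, against 83.2 ± 3.82 CPM in siControl (log2 changes 0.40 and -0.32, edgeR adjusted p = 8.4e-04 and 0.00751). RBBP4 and HDAC1, histone-binding and deacetylase subunits, fell by 0.43 and 0.34 after siZNF593 (edgeR adjusted p = 1.2e-05 and 9.1e-04), although the RBBP4 change was -0.23 with the stranded columns summed. SIN3B rose by 0.23 with wtZFX and fell by 0.20 with ZFX12_13 (edgeR adjusted p = 8.1e-04 and 0.00359).

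Other marked shifts went with the same groups. The summed level of the 6 LN-229 markers was 5543 to 5715 CPM after siZFX and 3622 to 3929 CPM after siZNF593, against 5897 to 6094 CPM in siControl, and 3932 to 4123 CPM in the double knockdown, against 5698 to 5811 CPM in siControl_2. Of the 6, 2, 5 and 5 fell after siZFX, siZNF593 and the double knockdown, beside 17.1%, 14.6% and 20.6% of all genes. In the same order 1, 0 and 0 rose, beside 13.8%, 12.2% and 17.6%. Between the control sets 2 of the 6 were lower in siControl_2 and 0 higher, beside 4.88% and 5.43%. The 7 markers of other cell types, in which SNAP25 and SYT1 hold nearly all counts, summed to 117 to 126 CPM after siZFX and 84.4 to 102 CPM after siZNF593, against 71.2 to 77.4 CPM in siControl. Their part in the changes of the network genes was not tested.

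By their pattern over the 8 group means, each taken as a deviation from the mean of its own line's groups, the protein-coding genes most like MYC were TRADD (Pearson r = 0.988), CUL4B (0.985), SEC14L1 and VAC14 (0.981 each) and PMF1 (0.978) among 4406 genes with enough expression and spread. Those most like MYCN, whose group means spread most among the members, were LZTFL1 (0.985), HDAC3 (0.982), SEC61B (0.978), KIF26B (0.972) and PACSIN2 (0.971). The points share libraries and depth within a line, and the likeness rests mainly on the 5 LN-229 groups, where r ran from 0.973 to 0.993, so these values are a description.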

How the data were processed

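RNA-seq libraries of siRNA-treated LN-229 cells and of plasmid-transfected DKO 293T cells were analysed from read counts per gene. The counts were deposited by the authors as whole numbers in STAR's gene-count layout, for unstranded reads and for each strand. Per the labels' protocols, total RNA was extracted with trizol and libraries were made with NEBNext Ultra II; STAR, HTSeq and DESeq2 (versions not given) and GRCh38 are named in the submitters' processing notes. Reads split almost evenly between the strand columns, so the unstranded column was used; with it, reads shared by overlapping genes (9.49% to 11.1% of reads counted as ambiguous) are in neither gene.

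Gene names came from GENCODE 29. Each cell line was fitted alone in edgeR 4.0.16 (R 4.3.3) with TMM factors, filterByExpr and the robust quasi-likelihood test, with 1 coefficient per group. A call is a Benjamini-Hochberg adjusted p under 0.05 over all genes tested. The SE of a log2 change was derived from its F statistic, levels are CPM over TMM-scaled totals, and CPM per kilobase used merged exons and plain totals. Scripts were tested on simulated counts. Depth was 16223239 to 30159260 gene counts per library. Replicate numbers did not pair the samples: same-numbered libraries had deviations correlated between -0.08 and 0.05. The 10 genes and the lists of related genes were chosen with earlier results of these data known. The text names all 10 genes, the siRNA and construct targets, 5 MLX-side genes and, from each other list, genes among the 3 called ones with the largest absolute log2 change per comparison at a mean of at least 5 CPM; CEBPA in the double knockdown was named outside this rule, after its values were seen. Alternatives were DESeq2 1.42.0, RLE factors, no filter, summed stranded columns, a replicate block, fits of only the groups compared, other controls and leaving out each library. Shares of all genes in percent are those of the fit described above and do not hold for counts under the alternatives. Protein sequences were not analysed here.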

Additional observations from a re-analysis of the deposited data

Results flagged for a closer look

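The effect of the double knockdown differed from that of a single knockdown for 3 network genes, by a test of the difference itself. For MYC the double-knockdown effect minus the siZFX effect was -0.55 (edgeR adjusted p = 0.0149), and the double-knockdown effect minus the siZNF593 effect was 0.54 (edgeR adjusted p = 0.0201). For MYCN the difference from the siZFX effect was -1.60 (edgeR adjusted p = 8.2e-05), and for MXD1 it was 1.04 (edgeR adjusted p = 0.00132). Each uses a different control set for the double and the single knockdown, and between those sets MYC differed by -0.36 and MYCN by 0.95 (siControl_2 over siControl, log2). With siControl for both, the differences from the siZFX effect were -0.90 for MYC, -0.65 for MYCN and 0.89 for MXD1, each still called (edgeR adjusted p = 7.0e-07, 0.00855 and 6.3e-05), and the MYC difference from the siZNF593 effect was 0.18 (edgeR adjusted p = 0.249). ZFX itself was lowered less in the double knockdown, with a log2 change of -1.01, than after siZFX, with -1.66. That difference of 0.65 was also called, so the double knockdown and siZFX do not compare equal losses of ZFX. Its part in the differences above was not tested.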

How the results depend on the processing

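Over 1413 alternative values of the 10 genes, 1326 kept their side of the threshold (48 of them, none called, with the sign turned) and 35 gained a call. Of the 348 alternative values of changes that had a call, 52 lost it and 0 reversed. The call of MYC after siZFX held in all 14 alternatives (log2 change 0.34 to 0.53, highest edgeR adjusted p = 0.0478), as did those of MYCN after siZNF593 (-2.67 to -1.94) and of MXD4 with wtZFX (0.36 to 0.39) and ZFX12_13 (0.26 to 0.30). With siControl in place of siControl_2, TXNIP reversed to 0.40 for the double-knockdown effect minus that of siZFX and to 0.01 minus that of siZNF593, the network genes called in the double knockdown were 5 in place of 3, genes called for those differences were 6109 in place of 3137 and 5265 in place of 2929, and network genes called for the second were 3 in place of 1 (2 with DESeq2). With only the groups compared in the fit, network genes called were 2 after siZFX, 5 after siZNF593 (also 5 with stranded columns summed) and 0 between the constructs, and the control sets differed in 3700 genes in place of 1824. With wtZFX 1 network gene was called without a filter and 1 with DESeq2, in place of 3; with ZFX12_13 DESeq2 called 2 in place of 4; between the constructs 0 were called with RLE factors, no filter or DESeq2, in place of 1. Leaving out 1 library gave 2 to 6 network genes after siZNF593 (3564 to 6546 of all genes) and 1 to 3 between the control sets (1204 to 3503 genes). It gave 1 to 4 for the double-knockdown effect minus that of siZNF593 (2323 to 3897 genes). With wtZFX it gave 1 to 2, with ZFX12_13 1 to 4 and between the constructs 0 to 2. The highest after siZNF593 and between the control sets came without replicate 3 of the double knockdown, a library outside those comparisons, left out after seeing the data; the cause of these shifts was not tested. With a replicate block, 5483 genes were called after siZFX, 4711 after siZNF593, 6788 in the double knockdown, 8178 with wtZFX and 7107 with ZFX12_13, and 2 network genes were called with wtZFX, where MLX was lost (adjusted p = 0.0527, edgeR); between the constructs MLX was lost (0.0531) and MAX gained (0.0467). A count of network genes with no count of all genes at the same setting cannot be read as a result about the network. Depth limits MYCL in LN-229 and MYCN in DKO cells, at 0 to 22 and 8 to 23 reads a library.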
